A study of Mus musculus with 6 samples.

Results

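Matrix metalloproteinases (MMPs) are zinc-dependent proteases that cut collagens, laminins, fibronectin and other proteins of the extracellular matrix, and also shed or activate proteins at the cell surface. Most are secreted as inactive proforms, while the membrane types are anchored to the cell surface. Tissue inhibitors of metalloproteinases (TIMPs) bind the active site and block it, and TIMP2 also takes part in the activation of pro-MMP2 by MMP14. In the kidney this system acts on the tubular basement membrane and on the interstitial matrix around tubules and cysts. The 10 genes described here, Mmp2, Mmp3, Mmp7, Mmp9, Mmp12, Mmp14, Mmp15, Timp1, Timp2 and Timp3, were taken by symbol from the 55367 gene symbols that each library lists.

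RNA-seq was carried out on kidney cells of male mice that bind Dolichos biflorus agglutinin (DBA), a lectin used to capture collecting duct epithelium (labelled Day115, age in days). WT mice received saline. ADPKD mice carried Pkd1 fl/fl and Cre/Esr1+, lost Pkd1 after tamoxifen at days 25 and 28 (Pkd1-/- in the labels), and received saline. ADPKD+MMPP mice were Pkd1-/- mice given MMPP, a melanin-like nanoparticle with chelated Mn2+ and incorporated polyethylene glycol, intravenously every 4 days from day 55. Each of the 3 groups had 2 libraries, called replicates 1 and 2. The promoter that drives Cre and whether WT mice carried Cre or received tamoxifen are not given in the sources used here, and the cells were captured on beads from digested kidneys, in which markers of other cell types were detected. No source says whether the 2 libraries of a group came from separate animals, so p-values measure the spread between libraries, which may be technical.

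Pkd1 itself was at 17.7 and 17.2 FPKM (fragments per kilobase of exon, scaled to library depth) in WT, 7.64 and 8.91 in ADPKD, and 4.34 and 3.99 in ADPKD+MMPP. The steps between low values placed the depth at 30.5 to 33.1 M (mega) reads in the WT and ADPKD libraries and at 10.9 to 11.8 M reads in the ADPKD+MMPP libraries. The ADPKD+MMPP values also had another pattern, as 7.17% to 7.67% of their low read numbers were odd against 35.2% to 37.2% in the other libraries. The sources used here do not say whether these libraries were processed in another way. In the 618 protein-coding genes with the lowest share of exon bases in exactly 1 annotated transcript, the median change after treatment was −1.70 on the log2 scale, and in the 1312 genes with all exon bases in 1 transcript it was 1.10. The same medians for ADPKD against WT were 0.06 and 0.03. Every comparison that includes the ADPKD+MMPP libraries therefore carries this difference, and treatment and processing cannot be told apart. Values centred on genes with a like share, by subtracting from each library its median level over such genes, are given beside the results. In addition, 37 of 37 mitochondrially encoded symbols were at 0 in every library, so an exact 0 is read here only as a listed value.

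The promoters of 3 protease genes that share a cluster on chromosome 9 are shown first, because Mmp3, Mmp7 and Mmp12 were all near or under 1 FPKM in WT and all reached higher values in ADPKD. RefSeq promoters (GRCm38.p6, from 250 bases before to 50 bases after the start) were on hand for 8 of the 10 genes, all but Mmp2 and Mmp9, with 2 entries each for Mmp7 and Mmp12. Both strands were searched for the AP-1 letters TGANTCA, for the cAMP response element (CRE) TGACGTCA and for its shorter core TGACG, which is part of the full CRE. AP-1 is the Fos and Jun family of factors, and the CRE is the element that CREB binds. The 100 bases before the start are printed 5′ to 3′ on the plus strand, with the matched letters in capitals.
Mmp3, chr9:7445722-7445821: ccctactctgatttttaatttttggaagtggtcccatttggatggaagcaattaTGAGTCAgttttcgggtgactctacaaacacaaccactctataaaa
Mmp7, chr9:7691990-7692089: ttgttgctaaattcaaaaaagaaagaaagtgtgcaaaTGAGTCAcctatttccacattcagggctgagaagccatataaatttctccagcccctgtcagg
Mmp12, chr9:7347274-7347373: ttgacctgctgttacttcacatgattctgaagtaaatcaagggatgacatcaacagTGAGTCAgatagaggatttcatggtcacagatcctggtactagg
Timp1, chrX:20870066-20870165: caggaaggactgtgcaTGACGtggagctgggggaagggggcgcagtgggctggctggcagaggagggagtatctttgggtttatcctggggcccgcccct

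The AP-1 letters began 46 bases before the start in Mmp3, 63 bases before it in Mmp7 and 44 bases before it in Mmp12, each time as TGAGTCA. The matches of Mmp7 and Mmp12 stood in 1 of their 2 entries. For Mmp12 this entry (7347124 to 7347423) lies inside the gene, whose annotated start is 7344381. The other Mmp12 entry (7344147 to 7344446), which spans that start, held no match. Of all 32851 RefSeq promoters of this length, 7.81% held the AP-1 letters, 1.79% the full CRE and 20.8% the core TGACG. Counted by gene over any entry, the shares of 27025 genes were 8.97%, 2.03% and 23.0%. No full CRE was found in the 8 genes, and the core was found in Timp1 alone, 84 bases before its start. Mmp14, Mmp15, Timp2 and Timp3 held none of the 3 sets of letters in these windows. A match is a description of letters, not of a bound site. Promoters of the other MMP genes in the cluster were not searched. These matches therefore cannot set Mmp3, Mmp7 and Mmp12 apart from their neighbours.

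Among the genes described here, few set the summed level. In WT the order was Timp3, Timp2, Mmp2, Mmp14 and Mmp15, followed by Mmp12 and Timp1, then Mmp3 and Mmp9, and Mmp7 at 0. The library ranges of Mmp12 and Timp1, and those of Mmp3 and Mmp9, overlapped. In ADPKD, Timp3 and Timp2 again led, but in the run Timp1, Mmp14, Mmp2, Mmp7, Mmp3 and Mmp12 each neighbouring pair overlapped, and Mmp15 and Mmp9, which overlapped with each other, were lowest. In ADPKD+MMPP, Mmp2, Mmp14 and Mmp7 followed the same 2 inhibitors with overlapping ranges, then Timp1, then Mmp15 and Mmp3, and last Mmp9 and Mmp12. Summed over the 3 TIMP genes the level was 433 and 400 FPKM in WT, 293 and 339 in ADPKD, and 368 and 362 in ADPKD+MMPP. Summed over the 7 MMP genes it was 64.9 and 59.0, 64.0 and 124, and 81.4 and 79.0 FPKM in the same order. The inhibitor transcripts thus exceeded the protease transcripts in all 6 libraries, by 6.68 and 6.78 times in WT, 4.58 and 2.73 times in ADPKD, and 4.52 and 4.58 times in ADPKD+MMPP. Mmp2 and Mmp14 together supplied 92.9% and 93.2% of the protease sum in WT but 56.1% to 58.2% in ADPKD replicate 2 and both ADPKD+MMPP libraries, with 85.1% in ADPKD replicate 1.

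**Figure D1:**
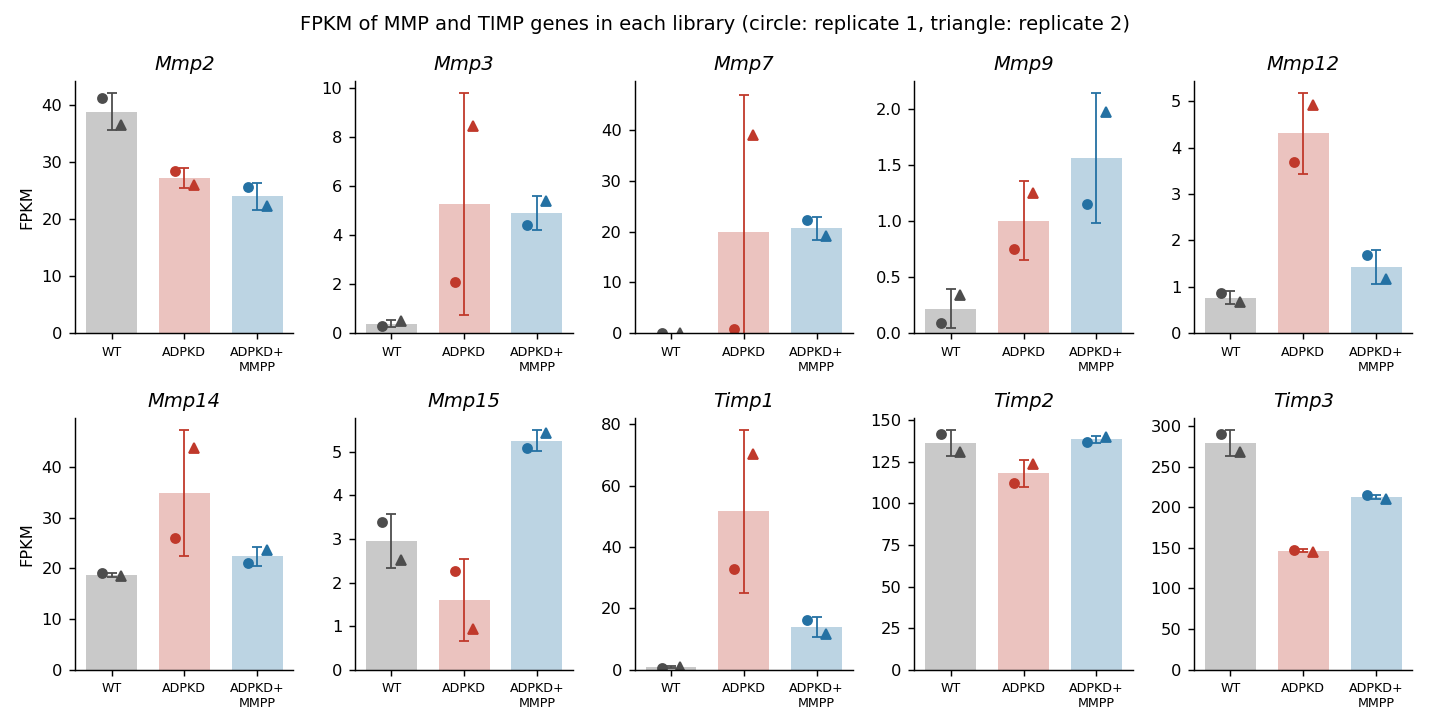
Level of each gene in FPKM (linear axes from 0, with a scale for each gene) in WT, ADPKD and ADPKD+MMPP. Bars are means of 2 libraries, error bars are the SD, circles are replicate 1 and triangles replicate 2; Mmp7 in WT, listed at 0 in both libraries, has no bar, and its ADPKD error bar runs below the axis. Timp1, Mmp12 and Mmp14 are highest in ADPKD, Timp3 is lowest there, and Mmp3 and Mmp7 differ widely between the 2 ADPKD libraries.

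The question of the first comparison was how the cystic cells differed from normal cells. Against WT, 5 of the 10 genes were called higher in ADPKD (Timp1, Mmp3, Mmp12, Mmp14 and Mmp9) and 1, Timp3, was called lower. Calls rest on limma on log2(FPKM + 1) over 14862 genes and need a 1.5-fold difference in either direction with an unadjusted P under 0.05, the thresholds of the study's methods. By this rule 26.7% of all genes tested were called, 14.2% higher and 12.5% lower. The median change of the 10 genes was 0.77 on the log2 scale, and that of all genes tested was 0.03. Mmp3, Mmp7, Mmp9, Mmp12 and Timp1 were under 1 FPKM in both WT libraries and entered the test through the other groups. This bears on how the count and the median of the 10 genes can be read. Bulk RNA of this kind cannot tell fewer cells of a type from less RNA per cell. With an adjusted p under 0.05 in place of P, 3 genes were higher, Mmp3, Mmp12 and Timp1, where 22.5% of all genes were called in either direction. Without WT replicate 1 the number called higher was 2, Mmp12 and Timp1, and without ADPKD replicate 1 the number called lower was 2, Mmp15 and Timp3.

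The second comparison asked what differed after MMPP. Against ADPKD, 1 of the 10 genes was called higher (Mmp15) and 2 were called lower (Mmp12 and Timp1) in ADPKD+MMPP. Of all genes tested 70.9% were called, 27.9% higher and 43% lower, so that a call was the more common outcome for any gene. With an adjusted p under 0.05 in place of P, 70.3% of all genes were called and the 3 calls stood. The median change was 0.18 for the 10 genes and −0.36 for all genes tested. With other scalings the median of all genes was −0.73 with all libraries set to a common sum, −0.15 with median-of-ratios factors and 0.10 after quantile normalization, and the share of higher calls among all calls was 39.3% as deposited, 46.5% with median-of-ratios factors, 54% after quantile normalization and 57.9% after centring. Centred on genes with a like share of exon bases in 1 transcript, a set of 12375 protein-coding genes, Mmp15 (0.24) and Timp1 (0.37) were no longer called, while Mmp9 (1.01) was called higher and Timp2 (−0.88) and Mmp12 (−1.14) lower. Without ADPKD replicate 1, 5 genes were called lower, Mmp3, Mmp7, Mmp12, Mmp14 and Timp1. Without ADPKD replicate 2, 3 were called higher, Mmp3, Mmp7 and Mmp15.

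Against WT, 5 of the 10 genes were called higher in ADPKD+MMPP (Timp1, Mmp7, Mmp3, Mmp9 and Mmp15) and 1, Mmp2, lower. Here 73.9% of all genes tested were called, 30.1% higher and 43.8% lower. The medians were 0.56 for the 10 genes and −0.36 for all genes. Again Mmp3, Mmp7, Mmp9, Mmp12 and Timp1, under 1 FPKM in both WT libraries, had entered the test through the other groups. The count and median here, and the overlap counts against WT below, have to be read with that limit. With an adjusted p under 0.05 in place of P, 73.4% of all genes were called, and Mmp15 was not. Without WT replicate 1, WT replicate 2 or ADPKD+MMPP replicate 1, 3 genes were called higher, and without ADPKD+MMPP replicate 2 none was called lower. Centred values gave 2 higher, Mmp9 and Timp1, and 3 lower, Mmp2, Timp2 and Timp3. The ADPKD libraries enter both of the first comparisons and the WT libraries both the first and the last, so the changes are not independent of each other. Both libraries of one group lay outside those of the other for 10 of 10 genes in ADPKD against WT, where 67% of all genes did so. They did so for 7 of 10 in ADPKD+MMPP against ADPKD (87.8% of all genes) and for 9 of 10 in ADPKD+MMPP against WT (91.9% of all genes).

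**Figure D2:**
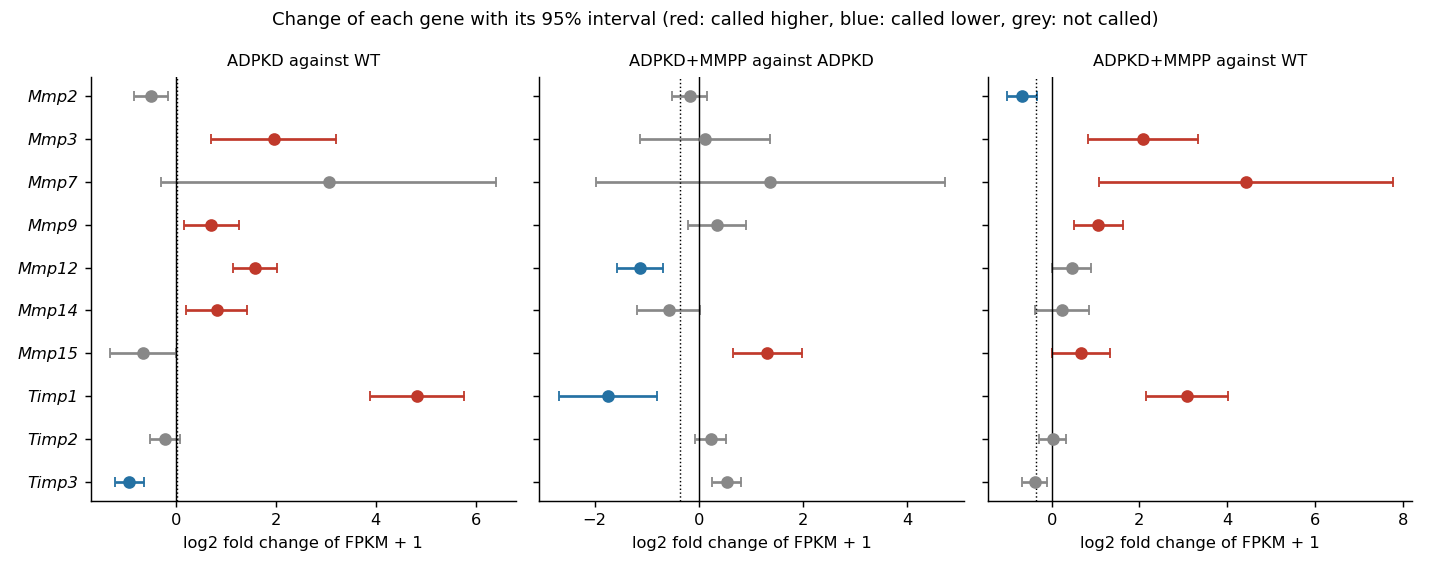
Change of each gene on the log2(FPKM + 1) scale (x axis) in the 3 comparisons, with its 95% interval from limma. Red points are called higher, blue points lower and grey points not called, and the dotted line marks the median of all genes tested; Timp1 has the highest value and Timp3 the lowest in ADPKD against WT, and the intervals of Mmp7 are the widest in each comparison.

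Timp1, an inhibitor that is induced in many injured or fibrotic tissues, lies on chromosome X (20870166 to 20874735, GRCm38). Its level was 0.516 and 0.982 FPKM in WT, 14 and 27 reads. It was 32.9 and 70.5 FPKM in ADPKD and 16.2 and 11.6 FPKM in ADPKD+MMPP. Both ADPKD libraries were above all others, both WT libraries were below all others, and no groups overlapped. The mean of 51.7 ± 26.5 FPKM (SD, n = 2) in ADPKD was 69.0 times that of WT. The change was 4.83 ± 0.38 (SE) on the log2(FPKM + 1) scale, with an adjusted p of 0.00302 by limma. Against ADPKD, the change in ADPKD+MMPP was −1.74 ± 0.38, with an adjusted p of 0.00709. After centring this value was 0.37. Only 6.76% of the exon bases of Timp1 are in exactly 1 transcript, and the median level of genes with a like share, which centring subtracts, was 2.11 lower on the log2 scale in ADPKD+MMPP (0.86) than in ADPKD (2.97). Against WT, Timp1 in ADPKD+MMPP was 18.5 times higher in mean FPKM and 3.08 ± 0.38 higher on the log2(FPKM + 1) scale (adjusted p = 0.000626 by limma), and 5.06 higher after centring. Timp1 made up 0.119% and 0.246% of the TIMP sum in WT, 11.2% and 20.8% in ADPKD, and 4.41% and 3.19% in ADPKD+MMPP.

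Timp3, the inhibitor that binds the extracellular matrix and also blocks several ADAM and ADAMTS proteases, was the most abundant of the 10 genes in every library. It lies on chromosome 10 (86300372 to 86349506). Its level was 291 and 268 FPKM in WT, 148 and 145 FPKM in ADPKD, and 215 and 211 FPKM in ADPKD+MMPP. ADPKD was lowest, ADPKD+MMPP stood between the other two groups, and no libraries of different groups overlapped. The change from WT to ADPKD was −0.92 ± 0.11 (adjusted p = 0.00536 by limma), a mean in WT that was 1.91 times that of ADPKD. ADPKD+MMPP was 0.53 ± 0.11 above ADPKD (adjusted p = 0.00645), a 1.45-fold difference that did not reach the fold threshold, and −0.39 ± 0.11 from WT (adjusted p = 0.0209), also short of it, although with a common sum (−0.79), after quantile normalization (−0.92) and after centring (−1.59) it was called lower than WT. The sign after treatment depended on the scaling, as centring gave −0.54 against ADPKD, and median-of-ratios factors gave 0.85, which was called higher. Timp3 lies over Syn3, which runs on the opposite strand and shares 1733 exon bases with it (21.3% of those of Timp3). Syn3 was at 0.345 to 1.42 FPKM, and the sources do not say whether counting used strand.

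Timp2, the inhibitor that also bridges MMP14 and pro-MMP2, lies on chromosome 11 (118301069 to 118355740, minus strand). Its level was 142 and 131 FPKM in WT, 112 and 124 FPKM in ADPKD, and 137 and 140 FPKM in ADPKD+MMPP. The ADPKD libraries were lowest by a small margin, and the ADPKD+MMPP and WT ranges overlapped. No comparison was called. The interval was −0.51 to 0.09 for ADPKD against WT, −0.07 to 0.53 for ADPKD+MMPP against ADPKD, and −0.28 to 0.32 for ADPKD+MMPP against WT. After centring the values were −0.88 against ADPKD and −1.12 against WT, both called lower, and the common sum and quantile scalings also gave negative values against both groups without a call.

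Among the gelatinases, which cut denatured collagen and the type IV collagen of basement membranes, Mmp2 was abundant and Mmp9 was scarce. Mmp2 (chromosome 8, 92827291 to 92853420) was at 41.2 and 36.6 FPKM in WT, 28.4 and 25.9 FPKM in ADPKD, and 25.7 and 22.3 FPKM in ADPKD+MMPP. Both WT libraries were above all others, and ADPKD+MMPP lay just under ADPKD without overlap. The change from WT to ADPKD was −0.50 ± 0.14 (adjusted p = 0.0462 by limma), a ratio below the fold threshold, so that it was not called, although it was called with a common sum (−0.60) and after quantile normalization (−0.60). ADPKD+MMPP was −0.67 ± 0.14 from WT (adjusted p = 0.00506), which was called lower but was not called without ADPKD+MMPP replicate 2 (−0.58) or with median-of-ratios factors (−0.43). Against ADPKD the difference was −0.17, with an interval of −0.51 to 0.17, and it was 0.13 with median-of-ratios factors.

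Mmp9 (chromosome 2, 164940780 to 164955850), the gelatinase that neutrophils and macrophages can release, was at 0.0924 and 0.338 FPKM in WT, 0.752 and 1.25 FPKM in ADPKD, and 1.15 and 1.97 FPKM in ADPKD+MMPP. These were 10 and 37, 88 and 142, and 48 and 76 reads. WT was lowest in both libraries, and the ADPKD and ADPKD+MMPP ranges overlapped. The change from WT was 0.72 ± 0.22 in ADPKD (adjusted p = 0.0655 by limma) and 1.06 ± 0.22 in ADPKD+MMPP (adjusted p = 0.00576), and both were called higher. The ADPKD call was lost without WT replicate 1 (0.57), without ADPKD replicate 2 (0.54) and after quantile normalization (0.51). ADPKD+MMPP against ADPKD was not called (0.35, interval −0.21 to 0.90), but it was called higher after quantile normalization (1.03) and after centring (1.01). After centring the difference between ADPKD+MMPP and WT was 1.73.

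Mmp3, Mmp7 and Mmp12 belong to the group of MMP genes on chromosome 9 whose promoters are printed above. Mmp3 (7445822 to 7455975) encodes stromelysin-1, which cuts proteoglycans, laminin and fibronectin and can activate other proMMPs. Its level was 0.291 and 0.484 FPKM in WT, 2.06 and 8.47 FPKM in ADPKD, and 4.42 and 5.39 FPKM in ADPKD+MMPP. Each WT library was below every ADPKD and ADPKD+MMPP library, and the ADPKD+MMPP libraries stood between the 2 ADPKD libraries. The change from WT was 1.96 ± 0.50 in ADPKD (adjusted p = 0.0385 by limma) and 2.09 ± 0.50 in ADPKD+MMPP (adjusted p = 0.01), or 13.6 and 12.7 times in mean FPKM. The first was not called without WT replicate 1 (1.86) and was 1.15 without ADPKD replicate 2 and 2.77 without ADPKD replicate 1. The second was not called after centring (0.79). Between ADPKD+MMPP and ADPKD the difference was 0.13 with an interval of −1.12 to 1.38, and its sign depended on the library left out, with −0.69 without ADPKD replicate 1 and 0.94 without ADPKD replicate 2. It was −1.03 after centring and was not called.

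Mmp7 (7692090 to 7699585) encodes matrilysin, a small epithelial MMP that is known from injured and fibrotic kidney. It was listed at 0 in both WT libraries, where 3 reads would be 0.0920 and 0.0907 FPKM. In ADPKD it was at 0.736 and 39.0 FPKM, 26 and 1338 reads, and in ADPKD+MMPP at 22.3 and 19.1 FPKM, 281 and 222 reads. The ADPKD libraries thus differed 53.1-fold from each other, and both ADPKD+MMPP libraries lay between them. On the log2(FPKM + 1) scale the difference from WT was 3.06 in ADPKD with an interval of −0.29 to 6.41 (adjusted p = 0.15 by limma), which was not called. It was called without ADPKD replicate 1 (5.32), without ADPKD replicate 2 (0.80), with a common sum (4.48) and with a pseudocount of 0.1 (5.84). In ADPKD+MMPP the difference from WT was 4.43 ± 1.35 (adjusted p = 0.0244), called higher, but not called when either WT library or either ADPKD+MMPP library was left out (4.33 to 4.54) or after centring (3.13). These sizes depend on the pseudocount of 1 because of the zeros in WT. The spread behind the calls is pooled over all groups, and the SD of Mmp7 was 27.1 FPKM in ADPKD, 2.29 in ADPKD+MMPP and 0 in WT. The uncertainty of ADPKD+MMPP against WT thus came mostly from the ADPKD libraries, which are outside that comparison. Against ADPKD, the treated libraries differed by 1.37 with an interval of −1.98 to 4.72, or by −0.89 without ADPKD replicate 1 and 3.64 without ADPKD replicate 2. After centring the difference was 0.22. All exon bases of Mmp7 are in 1 transcript, and the median level of such genes was 1.16 higher on the log2 scale in ADPKD+MMPP than in ADPKD. The antisense gene AV064505, which shares 123 exon bases with Mmp7, was at 0 in all 6 libraries.

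Mmp12 (7344381 to 7369499) encodes macrophage metalloelastase. Its level was 0.859 and 0.665 FPKM in WT, 3.69 and 4.93 FPKM in ADPKD, and 1.69 and 1.17 FPKM in ADPKD+MMPP. ADPKD was highest in both libraries, ADPKD+MMPP was intermediate and WT was lowest, with no overlap. The change was 1.58 ± 0.18 from WT to ADPKD (adjusted p = 0.00468 by limma), a 5.66-fold difference in mean FPKM, and −1.13 ± 0.18 from ADPKD to ADPKD+MMPP (adjusted p = 0.00195). The lower level after treatment was also called after centring, while after quantile normalization it was −0.47 and was not called. ADPKD+MMPP was 0.45 above WT (adjusted p = 0.0583 by limma), below the fold threshold, and was called higher without ADPKD+MMPP replicate 2 (0.61), with median-of-ratios factors (0.59) and after quantile normalization (1.09). Mmp12 shares 157 exon bases with Mmp1b on the opposite strand, which was at 0 in 5 libraries and at 0.0417 FPKM in ADPKD replicate 1.

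**Figure D3:**
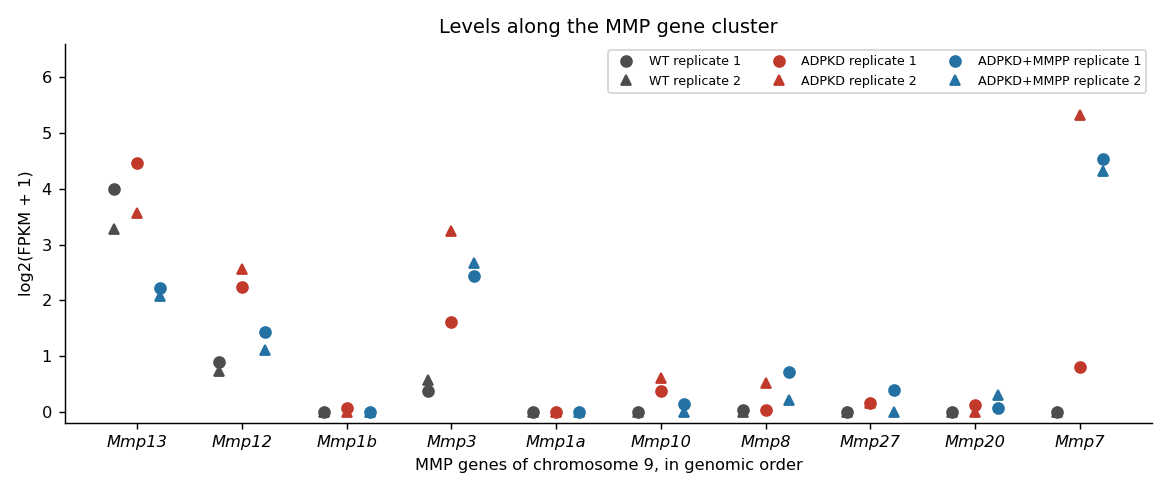
Level on the log2(FPKM + 1) scale (y axis) of 10 MMP genes that lie in this order on chromosome 9 (x axis, not to genomic scale), with circles for replicate 1 and triangles for replicate 2 in WT (grey), ADPKD (red) and ADPKD+MMPP (blue). Mmp12, Mmp3, Mmp7 and Mmp13 carry the signal, Mmp13 is lowest in ADPKD+MMPP, and the other genes lie near 0.

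The genes of the cluster did not share 1 pattern. Between Mmp13 at one end and Mmp7 at the other, Mmp1a was at 0 in all 6 libraries, and Mmp1b, Mmp10, Mmp8, Mmp27 and Mmp20 stayed under 1 FPKM in all of them. Mmp13, a collagenase, was at 15 and 8.75 FPKM in WT, 21.0 and 10.9 FPKM in ADPKD, and 3.68 and 3.22 FPKM in ADPKD+MMPP. Its WT and ADPKD ranges overlapped, whereas Mmp3, Mmp7 and Mmp12 were higher in both ADPKD libraries than in either WT library. So were Mmp10 (0.298 and 0.525 FPKM in ADPKD) and Mmp27 (0.109 and 0.113 FPKM), both at 0 in WT. Neither was tested, and at such low values a change or its absence cannot be told.

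The 2 membrane-type MMPs had different patterns. Mmp14 (chromosome 14, 54431612 to 54445364), whose product activates pro-MMP2 and cuts fibrillar collagen, was at 19.1 and 18.4 FPKM in WT, 26.1 and 43.7 FPKM in ADPKD, and 21.1 and 23.7 FPKM in ADPKD+MMPP. The ADPKD libraries were highest but far from each other, and ADPKD+MMPP lay between WT and ADPKD without overlap. The change from WT to ADPKD was 0.82 ± 0.25 (adjusted p = 0.0594 by limma), called higher, and it was not called without WT replicate 1 (0.84), WT replicate 2 (0.79) or ADPKD replicate 2 (0.46). From ADPKD to ADPKD+MMPP the value was −0.58, with an interval of −1.19 to 0.03, and it was called lower without ADPKD replicate 1 (−0.94), with a common sum (−0.89) and after quantile normalization (−0.66). ADPKD+MMPP and WT differed by 0.24 with an interval of −0.37 to 0.85.

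Mmp15 (chromosome 8, 95352268 to 95375080), a second membrane-type enzyme, was at 3.39 and 2.51 FPKM in WT, 2.26 and 0.936 FPKM in ADPKD, and 5.08 and 5.43 FPKM in ADPKD+MMPP. ADPKD+MMPP was highest and ADPKD lowest, with no overlap. ADPKD against WT was −0.65 ± 0.27 (adjusted p = 0.13 by limma) and was not called, although it was called lower without ADPKD replicate 1 (−1.02) and under each other scaling (−0.95 to −0.67). ADPKD+MMPP was 1.32 ± 0.27 above ADPKD (adjusted p = 0.00521), called higher, but 97.0% of the exon bases of Mmp15 are in 1 transcript, and after centring the value was 0.24. Against WT it was 0.67 ± 0.27 (adjusted p = 0.0591 by limma), called higher, and this call was lost without any 1 of the WT or ADPKD+MMPP libraries (0.51 to 0.83), with a common sum (0.42) and after centring (−0.53).

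**Figure D4:**
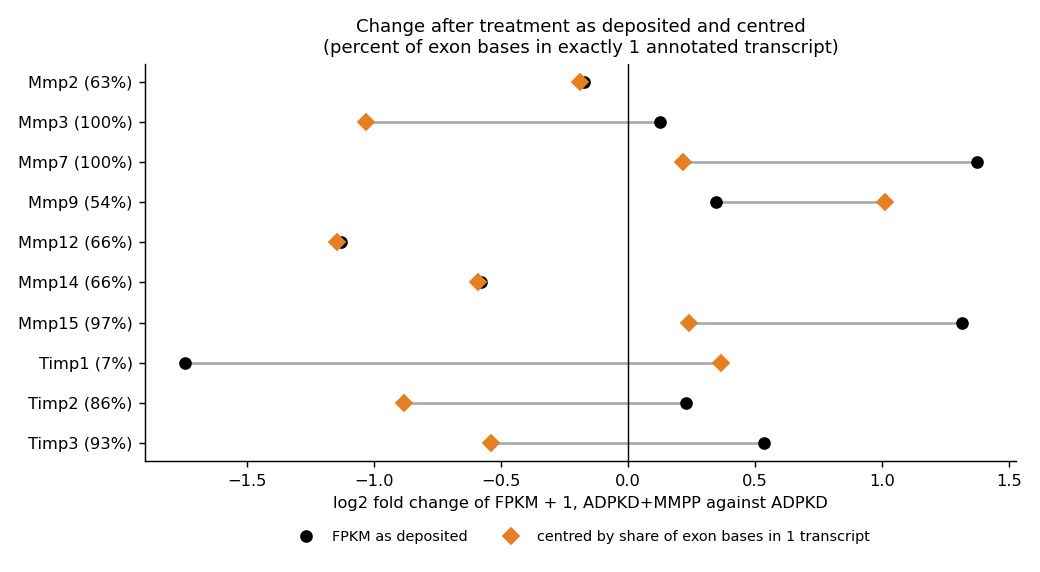
Change from ADPKD to ADPKD+MMPP on the log2(FPKM + 1) scale (x axis) for each gene, as deposited (black circles) and centred on genes with a like share of exon bases in exactly 1 annotated transcript (orange diamonds), with that share in parentheses. Mmp2, Mmp12 and Mmp14 barely move, while Mmp3, Timp1, Timp2 and Timp3 change sign.

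Over the 6 libraries, the genes whose pattern of log2(FPKM + 1) was most like that of Mmp2, among 7630 genes with a mean of at least 5 FPKM, were Ccdc184, Ptprg and Fam193b (Pearson r of 0.986, 0.985 and 0.985). For Timp3 they were Adgrl4, Jag2 and Tbc1d2b (r of 0.998, 0.997 and 0.995). These values describe 6 libraries in 3 groups that also differ in depth.

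Genes of the same proteolytic system were examined from lists, to be read against all genes tested, of which 14.2% were higher and 12.5% lower in ADPKD against WT, while after MMPP 27.9% were higher and 43% lower than in ADPKD. Among listed genes called higher in ADPKD, Mmp11, Mmp19, Tfpi2, Adam8, Adamts2, Adamts3, Adamts15, Col1a1 and Col3a1 were under 1 FPKM in both WT libraries. They entered the test through the other groups, which bears on how these counts can be read. Of 16 other MMP genes, 6 were tested. In ADPKD against WT 2 were higher and 3 lower, with Mmp19 at 0.148 and 0.338 FPKM in WT against 1.88 and 15.7 in ADPKD, and Mmp28 at 4.85 and 4.89 FPKM against 1.11 and 1.63. The Mmp19 call was lost without either WT library (2.38 and 2.60). After MMPP none was called higher and 2 lower, Mmp13 (−1.86) and Mmp19 (−2.34), of which Mmp19 was not called after centring (−0.95) or without any 1 of the WT or ADPKD+MMPP libraries (−2.46 to −2.21). For these 6 genes the counts were 3 higher and 2 lower after centring, and 2 higher and 1 lower after quantile normalization. Of 10 other inhibitors, 7 were tested, and 2 were higher and 3 lower in ADPKD. Serpine2, an inhibitor of plasminogen activators and thrombin, was lower (85.3 and 79.9 FPKM against 28.2 and 24.0, −1.63 on the log2 scale), and Tfpi2 was higher (0.356 and 0.499 FPKM against 4.86 and 4.34, 1.97). After MMPP 1 of the 7 was higher and 3 were lower, among them Reck, a membrane-anchored MMP inhibitor (5.59 and 3.90 FPKM in ADPKD, 0.567 and 0.384 in ADPKD+MMPP), whose change of −1.95 became 0.16 after centring.

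Of 15 activators and surface partners, 14 were tested. In ADPKD 6 were higher and 3 lower, with a median change of 0.36 against 0.03 over all genes tested. Plau, the urokinase that generates plasmin, was at 121 and 100 FPKM in WT, 781 and 835 in ADPKD, and 669 and 683 in ADPKD+MMPP, 2.86 higher in ADPKD than in WT (adjusted p = 0.00156 by limma). Plat, the tissue-type plasminogen activator, was at 861 and 747 FPKM, 183 and 135, and 91.0 and 89.2 in the same order, −2.34 in ADPKD (adjusted p = 0.00291). Cd44, a surface receptor that can hold MMP9 at the cell surface, was at 2.19 and 1.91 FPKM in WT, 25.7 and 29.7 in ADPKD, and 1.0 and 0.947 in ADPKD+MMPP. After MMPP 2 of the 14 were higher and 8 lower, in a comparison in which 70.9% of all genes were called and 43% were lower, with Cd44 at −3.86 (−2.21 after centring) and Furin, a convertase that activates membrane-type MMPs, at −3.14 (−2.48 after centring). Of 21 TIMP-sensitive ADAM and ADAMTS genes, 16 were tested, with 5 higher and 4 lower in ADPKD, where 14.2% and 12.5% of all genes were, and 2 higher and 9 lower after MMPP, where 27.9% and 43% were.

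All 18 matrix and surface substrates were tested, and 10 were higher and 1 lower in ADPKD, where 14.2% and 12.5% of all genes were. Col1a1 was at 0.364 and 0.389 FPKM in WT, 32.3 and 33.4 in ADPKD, and 61.6 and 70.1 in ADPKD+MMPP. Col3a1 was at 0.240 and 0.382, 32.2 and 32.6, and 65.3 and 65.1 FPKM in the same order. After MMPP 4 of the 18 were higher and 8 lower, where 27.9% and 43% of all genes were, and these 8 included Fn1, fibronectin (34.6 and 35.7 FPKM in ADPKD, 0.942 and 0.816 in ADPKD+MMPP, −4.27, or −2.89 after centring). Both collagens and Timp1 were thus above WT in both diseased groups. The collagen values and the list counts after MMPP are as deposited, not centred.

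Markers of the cell types that could carry these transcripts also differed between the groups. Marker values and calls are as deposited and not centred, so those of ADPKD+MMPP carry the difference in pattern described above. The 10 macrophage markers summed to 87.0 to 89.8 FPKM in WT, 537 to 651 in ADPKD and 1171 to 1223 in ADPKD+MMPP. In ADPKD against WT 9 were called higher and 1 lower, where 14.2% and 12.5% of all genes were. Itgam and Ptprc were under 1 FPKM in both WT libraries and entered the test through the other groups. Against ADPKD, 4 macrophage markers were called higher in ADPKD+MMPP (C1qa, C1qb, C1qc and Lyz2) and 5 lower, where 27.9% and 43% of all genes were. Lyz2 alone was at 568 and 565 FPKM in ADPKD+MMPP. The 5 lower markers included Csf1r (17.0 and 25.6 FPKM in ADPKD, 0.381 and 0.190 in ADPKD+MMPP) and Itgam, at 0 in both ADPKD+MMPP libraries. Mmp12 was higher in ADPKD than in WT and lower in ADPKD+MMPP than in ADPKD. The 6 neutrophil markers, with Ly6g at 0 in WT and ADPKD+MMPP, summed to 2.26 to 4.39 FPKM in WT, 2.79 to 15.1 in ADPKD and 8.35 to 9.89 in ADPKD+MMPP. Of the 10 stroma markers, 7 were called higher and 1, Pdgfrb, lower in ADPKD against WT, where 14.2% and 12.5% of all genes were. Lum, Postn, Thy1, Dpt, Mfap5 and Fbln1 were under 1 FPKM in both WT libraries and entered the test through the other groups. This bears on how the count can be read. The 10 stroma markers summed to 82.0 to 107 FPKM in WT, 94.3 to 103 in ADPKD and 25.7 to 29.9 in ADPKD+MMPP. Pdgfrb alone was at 91.3 and 65.6, 38.9 and 31.4, and 1.05 and 0.837 FPKM in the same order. The 7 endothelial markers summed to 728 to 879 FPKM in WT, 528 to 546 in ADPKD and 321 to 349 in ADPKD+MMPP. Of these, 6 were called lower and 1 higher in ADPKD than in WT, where 12.5% and 14.2% of all genes were. The 6 smooth muscle and pericyte markers summed to 114 to 127 FPKM in WT, 84.8 to 89.9 in ADPKD and 163 to 168 in ADPKD+MMPP. Of 5 tested, 3 were called lower and 0 higher in ADPKD than in WT, where 12.5% and 14.2% of all genes were. Against ADPKD, 3 were called higher and 2 lower in ADPKD+MMPP, where 27.9% and 43% of all genes were. The part of these cell types in the results was not tested.

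The 9 markers of collecting duct principal cells summed to 2118 to 2804 FPKM in WT, 943 to 2499 in ADPKD and 5430 to 5454 in ADPKD+MMPP. Aqp2 alone was at 3555 and 3499 FPKM in ADPKD+MMPP, and Avpr2 was at 0 to 0.0587 FPKM over all libraries. Against ADPKD, 4 of the 8 tested were called higher and 2 lower (Scnn1b and Elf5), where 27.9% and 43% of all genes were. The 8 intercalated cell markers summed to 303 FPKM in both WT libraries, 67.1 to 214 in ADPKD and 553 to 584 in ADPKD+MMPP. In ADPKD against WT 6 were called lower and 0 higher, where 12.5% and 14.2% of all genes were. Against ADPKD, 7 were called higher and 1 lower in ADPKD+MMPP, where 27.9% and 43% of all genes were. ADPKD replicate 2, the library with the highest Mmp3, Mmp7, Mmp12, Mmp14 and Timp1 and the lowest Mmp15, had the lowest sum of principal cell markers and of proximal tubule markers (293 FPKM). It also had the lowest sums of intercalated cell markers (67.1 FPKM) and of loop and distal tubule markers (192 FPKM). The 6 loop and distal tubule markers summed to 491 to 1270 FPKM in WT, 192 to 611 in ADPKD and 212 to 217 in ADPKD+MMPP. Of these 6, 3 were called lower and 0 higher in ADPKD than in WT, where 12.5% and 14.2% of all genes were. Against ADPKD, 3 were called higher and 1 lower in ADPKD+MMPP, where 27.9% and 43% of all genes were. The 12 proximal tubule markers summed to 387 to 699 FPKM in WT, 293 to 928 in ADPKD and 13679 to 14346 in ADPKD+MMPP. Kap alone gave 12822 and 12116 FPKM of the sums in ADPKD+MMPP, and the other 11 markers summed to 285 to 465 FPKM in WT, 229 to 419 in ADPKD and 1524 to 1563 in ADPKD+MMPP, where Hnf4a was at 0.0351 FPKM and at 0. Their part in the differences of Mmp15 and the other genes after treatment was not tested.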

How the data were processed

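RNA-seq values of DBA-positive kidney cells were used from 6 libraries, 2 in each of the groups WT, ADPKD and ADPKD+MMPP given by the labels. The authors aligned reads to GRCm38 (mm10) with HISAT2 2.1.0, counted them with featureCounts 1.6.0 and deposited FPKM values per gene symbol. The annotation release, the strand setting and the step from counts to FPKM are not given in the sources used here. The members and gene lists were chosen with earlier results of these data known.

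Since FPKM are not counts, limma 3.58.1 (R 4.3.3) was run on log2(FPKM + 1) in one fit of all 6 libraries, over 14862 genes with at least 1 FPKM in at least 2 libraries, with Benjamini-Hochberg adjustment over these genes. A fold change is therefore on the log2(FPKM + 1) scale and understates the change of low genes. The spread of each gene is pooled over all groups, also where only 2 of them are compared. Depth was read from FPKM times the exon length of GENCODE vM21 (GRCm38), which matched 53186 of 55367 symbols. Within 0.05 reads, 98.4% to 99.0% of values of up to 20 reads came out whole. From each other list, up to 3 called genes without overlap and with the largest change were eligible to be named. For the centred values, each library's median log2 level was subtracted within bins of protein-coding genes ordered by how much of their exon sequence belongs to 1 annotated transcript alone. Of 20 bins set, ties at 100% left 19 filled. Alternatives covered the pseudocount, the filter, 4 scalings or centrings, the variance model, the thresholds, a replicate block and each library left out. The limma step was tested on simulated data, with known changes planted in ADPKD in genes expressed in WT. That test did not cover genes low in WT or the different pattern of the ADPKD+MMPP libraries. Gene positions are those of GENCODE vM21.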

Additional observations from a re-analysis of the deposited data

How the results depend on the processing

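Over 30 changes of single genes and 17 alternatives (510 values), 435 kept their direction and their side of the threshold, 27 passed it where the reported value did not, 32 no longer passed it and 16 changed sign. In ADPKD against WT, 3 genes were called higher with an adjusted p under 0.05 and 3 with a fold change of at least 2. The number called lower there was 3 with a common sum, 2 with median-of-ratios factors, 3 after quantile normalization, 2 after centring, 0 at a fold change of at least 2 and 2 with the replicate block. In ADPKD+MMPP against ADPKD, 2 were called higher with median-of-ratios factors and 2 after quantile normalization. In ADPKD+MMPP against WT, 2 were called higher after centring, and the number called lower was 2 with a common sum, 0 with median-of-ratios factors, 2 after quantile normalization, 3 after centring and 0 at a fold change of at least 2. Leaving out 1 library gave 2 to 6 higher and 1 to 2 lower in the first comparison, 1 to 3 higher and 2 to 5 lower in the second, and 3 to 5 higher and 0 to 1 lower in the third. The cause of these shifts was not tested.

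Changes of sign in ADPKD+MMPP against ADPKD were Mmp2 with median-of-ratios factors (0.13), Mmp3 with a common sum (−0.10), after centring (−1.03) and without ADPKD replicate 1 (−0.69, against 0.94 without ADPKD replicate 2), Mmp7 without ADPKD replicate 1 (−0.89, against 3.64 without ADPKD replicate 2), Timp1 after centring (0.37), Timp2 with a common sum (−0.076), after quantile normalization (−0.052) and after centring (−0.88), and Timp3 after centring (−0.54). Against WT they were Mmp14 with a common sum (−0.14), Mmp15 after centring (−0.53), and Timp2 with a common sum (−0.37), after quantile normalization (−0.40), after centring (−1.12) and without WT replicate 2 (−0.036, against 0.079 without WT replicate 1). The replicate numbers did not pair the samples, with correlations of the replicate differences of 0.13 for WT and ADPKD, −0.01 for WT and ADPKD+MMPP, and 0.01 for ADPKD and ADPKD+MMPP over genes. With the number as a replicate block, 2 genes were called lower in ADPKD against WT, Mmp15 (−0.65) and Timp3, and no other call of the 10 genes changed.

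With 2 libraries per group, a library left out leaves 1 library that is assumed to vary like the other groups. At 10.9 to 11.8 M reads, 3 reads of Mmp7 in ADPKD+MMPP are 0.238 and 0.257 FPKM, against 0.0849 and 0.0875 FPKM in ADPKD, so low genes are less precisely measured there.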
